A study of Mus musculus with 48 samples.

Results

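Icam1 and Vcam1 are the genes of 2 cell surface adhesion molecules, and their rows were taken from the count table by gene symbol. They are 2 of the 49671 genes in the table, and both were among the 12203 genes with enough counts to be tested, Icam1 only through stimulated libraries. The counts come from cultures of NMM, a melanoma line of the mouse, in which every group carries the same mutated NRAS. Cells stayed in contact with a cytokine for 2, 6, 12 or 24 h. The 12 groups were unstimulated cells, IL-2 at 6000 U/ml, lymphotoxin α1β2 at 2 ng/ml, TGF-β at 10 ng/ml, IFN-α1 at 5000 U/ml, IFN-γ at 0.01, 1 or 100 ng/ml, TNF at 0.1, 1 or 10 ng/ml, and IFN-γ at 100 ng/ml together with TNF at 10 ng/ml. Each group has 1 library at each of the 4 durations, 48 in all, so the durations are the only repeats of a stimulus and a single duration has no replicate. One line was used, and the labels do not say whether the libraries came from separate cultures, so the p-values measure only the spread between these libraries. With durations as the repeats, the spread around a mean over durations also holds any change of a stimulus effect over time.

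ICAM-1 and VCAM-1 are immunoglobulin-type proteins on the surface of stimulated endothelium and of other cells. ICAM-1 binds the leukocyte β2 integrins LFA-1 and Mac-1, and through LFA-1 it helps a T cell to hold on to the cell it recognises. VCAM-1 binds the integrins α4β1 and α4β7. TNF is known to act on both genes through NF-κB.

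Library totals ran from 5612907 to 9663207 counts. A single count thus equals 0.105 to 0.179 counts per 1000000 (CPM, scaled by TMM factors), and mitochondrial genes took 0.513% to 1.44% of the counts. Of 8 melanocyte markers, Dct and Mlana had 0 counts in all libraries, Sox10, Tyr and Tyrp1 had 2 counts each in total, S100b had 99 and Pmel 152. Mitf, the melanocyte transcription factor, had 2555 and was detected in every library at a median of 6.80 CPM. Of the markers of cells labelled melanoma, the pigment genes Dct, Mlana, Tyr and Tyrp1 and the factor Sox10 were thus at or near 0, Pmel and S100b were low and Mitf was present. All 6 T and NK cell markers were at 0. The 6 macrophage and leukocyte markers summed to between 1.75 and 5.38 CPM per library. Cd68 made up 1221 of their 1264 counts, and Adgre1 was at 0. The 6 endothelial markers summed to between 2.75 and 26.8 CPM per library, with Cldn5 at 0, Kdr at 6 counts and nearly all of the signal in Cdh5. Markers of fibroblasts summed to between 27.6 and 82.8 CPM, most of it from Dcn, Pdgfrb and Pdgfra.

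Icam1 (ENSMUSG00000037405) lies on the plus strand of chromosome 9 at 21015985 to 21028817 of GRCm38. Its 7 exons and those of a second transcript cover 4360 bases. Vcam1 (ENSMUSG00000027962) lies on the minus strand of chromosome 3 at 116109949 to 116129688, and the exons of its 4 annotated transcripts cover 8870 bases. The 250 bases before the RefSeq start of Icam1 (GRCm38.p6, chr9:21015690-21015939, plus strand) are shown because the gene responded to TNF. Capitals mark a match to GGAAANTCC, an NF-κB site form.
Icam1 promoter: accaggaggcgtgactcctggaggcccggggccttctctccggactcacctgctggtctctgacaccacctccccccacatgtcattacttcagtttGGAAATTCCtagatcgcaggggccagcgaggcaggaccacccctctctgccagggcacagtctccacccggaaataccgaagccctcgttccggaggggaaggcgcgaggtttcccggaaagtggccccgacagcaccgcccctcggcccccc
The NF-κB form stood 153 to 145 bases before the start. Both strands were searched for each motif, and the matches do not overlap. Among 32851 promoters of the RefSeq table, 1.07% held the NF-κB form. The core of the interferon-stimulated response element had no match in the window, and 2.98% of promoters held it. GGGCGG, the GC box, had 1 match on the minus strand and 32.7% of promoters held one. These motifs were chosen with the promoter in view, and a match is not evidence of binding.

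Icam1 was close to undetected in resting NMM cells. The unstimulated libraries held 3, 0, 1 and 0 counts at 2, 6, 12 and 24 h. With IL-2, lymphotoxin or TGF-β all 12 libraries held 0 counts, which allows up to 0.109, 0.101 and 0.0990 CPM over the 4 libraries of each group. With IFN-α1 there was 1 count, at 2 h, and with IFN-γ at 0.01 ng/ml the libraries held 3, 0, 0 and 1. These 6 groups cannot be ordered for Icam1 at this depth. Intervals and zero limits here cover counting error only.

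Vcam1 was expressed in every library of resting cells. The unstimulated libraries held 52, 74, 40 and 34 counts, or 7.46, 9.13, 6.43 and 4.41 CPM at 2, 6, 12 and 24 h. Its level at 6 h was 2.07-fold that at 24 h (95% counting interval 1.36 to 3.21), with no stimulus added. IL-2 libraries ranged from 4.26 to 8.42 CPM and lymphotoxin libraries from 4.36 to 10.6 CPM, overlapping the unstimulated ones. The change from unstimulated was 0.001 ± 0.56 (log2 ± SE) with IL-2 and 0.05 ± 0.53 with lymphotoxin in edgeR's quasi-likelihood test, and neither passed. In those comparisons 0 of the 12203 genes were called (0% each), 152 and 195 had an unadjusted p under 0.05, and DESeq2 also called 0. IFN-γ at 0.01 ng/ml gave 10.1, 9.41, 7.37 and 3.48 CPM of Vcam1, a change of 0.13 ± 0.52. That dose likewise called 0% of genes, with 229 at an unadjusted p under 0.05 and 0 by DESeq2.

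**Figure D1:**
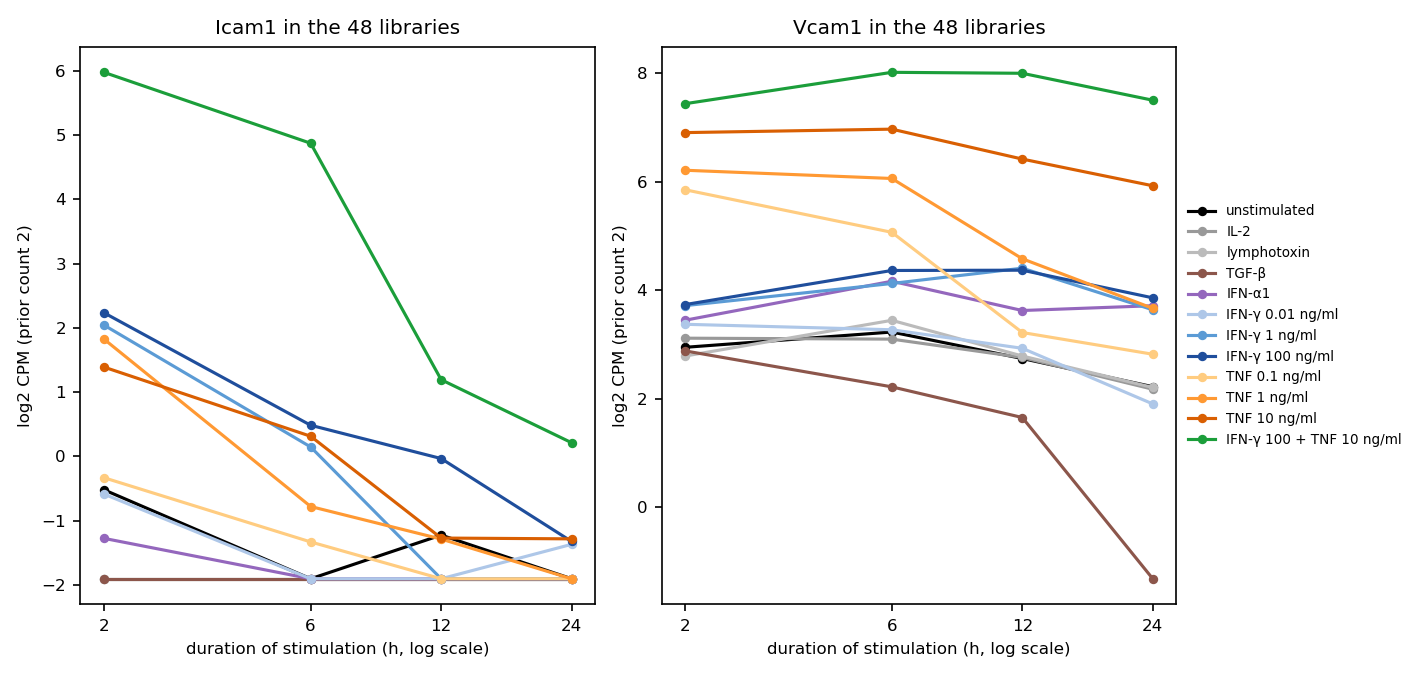
Level of Icam1 (left) and Vcam1 (right) in each library as log2 CPM with a prior count of 2, against the duration of stimulation in hours on a log scale, with 1 line for each of the 12 groups. Libraries with 0 counts sit at the bottom of the Icam1 panel. IFN-γ plus TNF is the top line in both panels, falling steeply for Icam1 and staying level for Vcam1, and the TGF-β line drops to 1 count of Vcam1 at 24 h.

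TNF alone raised both genes, Vcam1 from a measurable base. At 10 ng/ml the libraries held 815, 1028, 580 and 422 counts of Vcam1, or 120, 125, 85.4 and 60.6 CPM. All 4 lay above every unstimulated library, at 16.1, 13.7, 13.3 and 13.8 times the level of the same duration. Vcam1 rose by 3.83 ± 0.41 (log2 ± SE, 4 libraries a group, edgeR adjusted p = 2.03e-08), where 17.1% of all genes tested were called. The summed endothelial markers moved in the same direction, at 5.00 to 18.5 CPM against 3.58 to 6.48 CPM in unstimulated libraries, with 4 of the 6 at 0. Cdh5 rose by 0.88 ± 0.27 (adjusted p = 0.0185), with means of 9.38 against 4.86 CPM. The fibroblast markers summed to 38.5 to 82.8 CPM against 41.7 to 49.5 CPM. Of the 4 tested, Pdgfra rose by 0.74 ± 0.18 (edgeR adjusted p = 0.00368) and 3 did not pass. The part of either list in the Vcam1 level was not tested. In a bulk sample a larger share of responding cells and more RNA per cell cannot be told apart.

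Icam1 responded to the same TNF dose from a much lower base. Its counts at 10 ng/ml were 16, 8, 1 and 1, or 2.35, 0.975, 0.147 and 0.144 CPM. Those at 2 and 6 h exceeded every unstimulated library, while at 12 and 24 h the gene was back at 1 count. The fitted rise was 2.61 ± 0.74 (edgeR adjusted p = 0.0130), and over the 4 durations together the level was 6.56-fold (2.28 to 25.9) that of unstimulated cells. Without the 2 h libraries Icam1 had too few counts to be tested, so none of its calls has a value without them. For 10 ng/ml TNF the call was lost without the 6 h libraries (adjusted p = 0.0981), with DESeq2 (0.0924) and without duration in the model (0.606).

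The TNF doses lay closer together in Vcam1 at 2 h than later. At 0.1 ng/ml the libraries gave 57.6, 33.3, 9.07 and 6.81 CPM of Vcam1, that is 7.72, 3.65, 1.41 and 1.55 times the unstimulated level. The last 2 values have counting intervals that include 1. At 1 ng/ml Vcam1 stood at 74.0, 66.6, 23.7 and 12.5 CPM, or 9.92, 7.29, 3.68 and 2.83 times unstimulated. The ratio of 10 to 1 ng/ml thus went from 1.62 (1.45 to 1.80) at 2 h through 1.88 and 3.60 to 4.87 (3.92 to 6.09) at 24 h. Between 2 and 24 h the level dropped 8.46-fold (6.42 to 11.3) at the lowest dose, 5.94-fold (4.82 to 7.39) at the middle dose and 1.98-fold (1.76 to 2.23) at the highest.

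**Figure D2:**
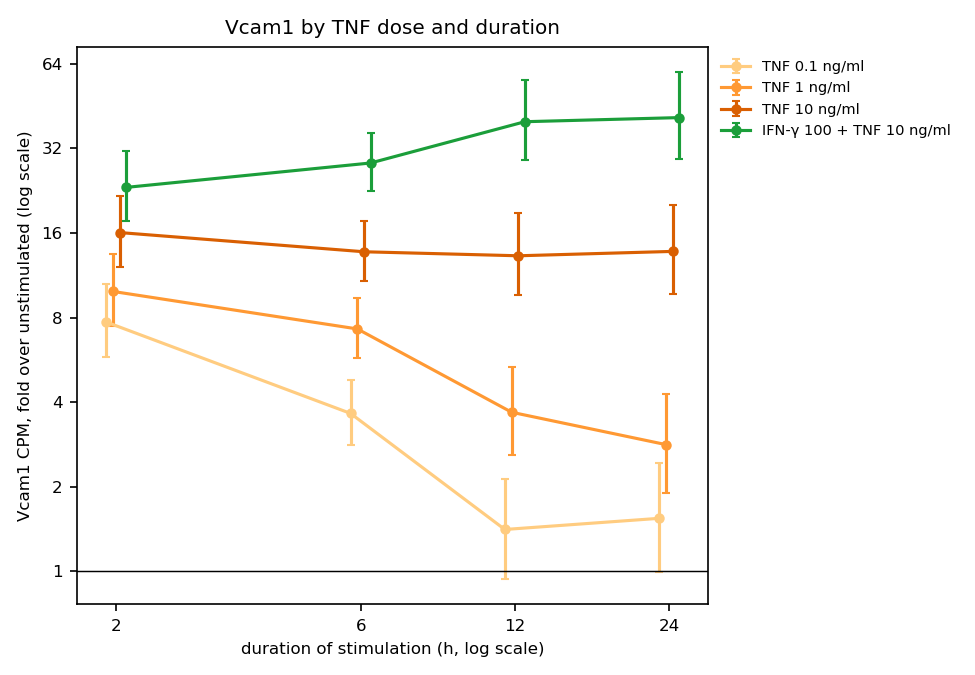
Vcam1 CPM as a multiple of the unstimulated library of the same duration (log scale) against duration in hours (log scale) for the 3 TNF doses and for IFN-γ plus TNF. Points are single libraries and bars are 95% counting intervals. The 10 ng/ml line stays between 13.3 and 16.1, the lower doses fall toward 1, and the combination reaches 41.2 at 24 h.

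The difference in time course was tested as a slope on log2 hours, in comparisons added after these values were seen. Vcam1 was better maintained at 10 than at 0.1 ng/ml by 0.68 ± 0.10 log2 units per doubling of time (edgeR adjusted p = 7.68e-05), where 5.03% of genes were called. Against 1 ng/ml the slope difference was 0.45 ± 0.09 (adjusted p = 0.0187), where only 0.262% of genes passed. Without the 2 h libraries neither passed (adjusted p = 0.213 and 0.194), although the differences were no smaller, at 0.74 ± 0.25 and 0.73 ± 0.21. The difference from 1 ng/ml also did not pass without the 24 h libraries (0.38 ± 0.12, adjusted p of 1) or with no filter (0.44 ± 0.09, 0.0760). The slope at 10 ng/ml did not depart from unstimulated cells (-0.07 ± 0.14, adjusted p = 0.888, with 2.43% of genes called).

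Averaged over durations, neither step between neighbouring TNF doses passed for Vcam1. Vcam1 rose by 2.59 ± 0.42 with 1 ng/ml TNF (adjusted p = 0.000215), in a comparison where 2.72% of genes passed, though without the 6 h libraries the adjusted p was 0.0810. With 0.1 ng/ml the change was 1.85 ± 0.44 (adjusted p = 0.153, with 0.0164% of genes called). In the 2 and 6 h libraries alone that dose did pass for Vcam1, at 2.45 ± 0.35 (adjusted p = 0.0107), and it also passed with DESeq2 (0.0247). The step from 1 to 10 ng/ml was 1.24 over the 4 durations (adjusted p = 0.132, 0.238% of genes called) and passed without the 2 h libraries (1.5 ± 0.28, adjusted p = 0.00452) and in the 12 and 24 h libraries alone (2.03 ± 0.19, 1.70e-06). From 0.1 to 1 ng/ml Vcam1 differed by 0.74 (adjusted p = 0.999), a comparison in which edgeR called 0% of genes, 521 had an unadjusted p under 0.05 and DESeq2 called 1. That step passed in the 12 and 24 h libraries alone (1.16 ± 0.25, edgeR adjusted p = 0.0426), the only call among 11 alternatives.

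Icam1 at 2 h was low with the lowest TNF dose and similar with the other doses. The counts at 2, 6, 12 and 24 h were 4, 1, 0 and 0 at 0.1 ng/ml and 26, 3, 1 and 0 at 1 ng/ml. At 2 h the middle dose gave 6.21 times the level of the lowest (2.16 to 24.5). The highest gave 0.718 times the middle dose (0.360 to 1.39), an interval that includes 1. Against unstimulated cells the change was 2.50 ± 0.73 at 1 ng/ml (adjusted p = 0.0554) and 0.21 ± 1.02 at 0.1 ng/ml, neither of which passed.

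IFN-γ alone raised Icam1 early and Vcam1 modestly. Icam1 counts at 100 ng/ml were 36, 7, 5 and 1, or 4.44, 1.13, 0.710 and 0.132 CPM, and at 1 ng/ml they were 29, 6, 0 and 0. At both doses the 2 and 6 h libraries lay above every unstimulated library. Icam1 rose by 3.44 ± 0.67 at 100 ng/ml (edgeR adjusted p = 0.000323, 22.1% of genes called) and by 2.88 ± 0.70 at 1 ng/ml (0.00493, 15% of genes called). Without duration in the model neither passed (adjusted p = 0.289 and 0.511), and DESeq2 did not call the 1 ng/ml change (0.130).

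Vcam1 with 100 ng/ml IFN-γ stood at 13.1, 20.4, 20.4 and 14.3 CPM, above every unstimulated library. The multiples of the unstimulated level were 1.75, 2.23, 3.18 and 3.24 at 2, 6, 12 and 24 h. The rise was 1.35 ± 0.46 (adjusted p = 0.0331), and the call was lost without the 6, 12 or 24 h libraries (adjusted p = 0.141, 0.164 and 0.0979). At 1 ng/ml Vcam1 gave 12.9, 17.2, 21 and 12.2 CPM, a change of 1.23 ± 0.47 that did not pass (adjusted p = 0.0713) but did in the 12 and 24 h libraries alone (1.60 ± 0.29, adjusted p = 0.000520). Of 12 alternatives 4 called it, the others being DESeq2 (0.0201), the fit without the 2 h libraries (0.0245) and a fit of those groups only (0.00100). The slope of the IFN-γ response of Vcam1 against unstimulated cells was 0.27 ± 0.15 (adjusted p = 0.304, 6.9% of genes called).

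The step from 0.01 to 1 ng/ml IFN-γ moved Icam1. The gene was higher at 1 than at 0.01 ng/ml by 2.95 (adjusted p = 0.00429), where 12.5% of genes were called, a call that was lost with DESeq2 (0.126) and without duration in the model (0.542). Vcam1 differed by 1.11 in the same comparison (adjusted p = 0.109), and by 1.63 ± 0.28 in the 12 and 24 h libraries alone (0.000399). Of 11 alternatives 4 called that Vcam1 difference, the others being DESeq2 (0.0374), the fit without the 2 h libraries (0.0266) and a fit of those groups only (0.0216). From 1 to 100 ng/ml neither gene changed by a called amount (Icam1 0.55, Vcam1 0.12), with edgeR calling 0% of genes, 303 at an unadjusted p under 0.05 and 0 by DESeq2. The Vcam1 ratio of those doses was 1.07 over the 4 durations together (0.941 to 1.22).

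**Figure D3:**
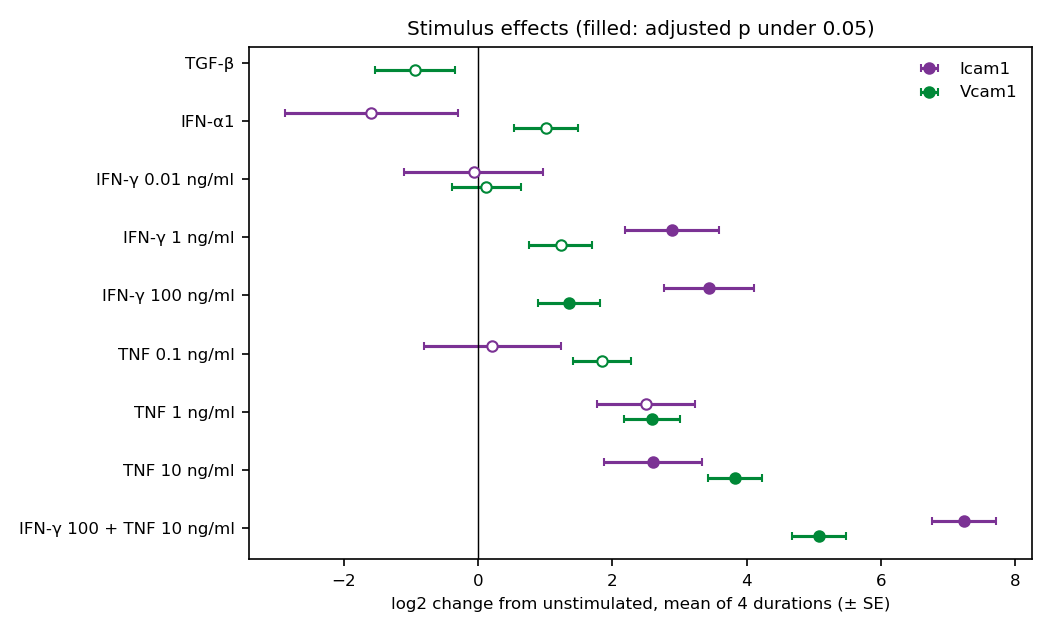
Log2 change of Icam1 (purple) and Vcam1 (green) from unstimulated cells, as the mean over the 4 durations with its SE, for 9 stimuli. Filled points have an edgeR adjusted p under 0.05. IL-2 and lymphotoxin are left out, as is TGF-β for Icam1, where all libraries were at 0. The filled points of TNF at 10 ng/ml lie at 2.61 and 3.83, those of IFN-γ at 100 ng/ml at 3.44 and 1.35, and the combination lies farthest right for both genes.

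Vcam1 was higher with TNF than with IFN-γ. For Vcam1, TNF at 10 ng/ml exceeded IFN-γ at 100 ng/ml by 2.48 (edgeR adjusted p = 5.13e-06), where 10.4% of genes were called. For Icam1 the same contrast was -0.83 (adjusted p = 0.318). Within each library, log2 Icam1 CPM minus log2 Vcam1 CPM averaged -6.77 ± 0.93 (SD, n = 4) with TNF, -3.74 ± 1.59 with IFN-γ and -4.18 ± 0.70 in unstimulated cells. TNF was lower than IFN-γ by 3.03 and lower than unstimulated by 2.59, each with no overlap between groups and an exact permutation p of 0.0286, two-sided, the smallest that 4 against 4 libraries can give. Over the 13 such comparisons the adjusted p was 0.149, so none passed. Libraries were permuted without pairing by duration. The unstimulated Icam1 libraries held 0 to 3 counts, so their log2 values depended on the prior count of 2. The slope of Vcam1 was lower with TNF than with IFN-γ by 0.34 ± 0.10 per doubling of time (edgeR adjusted p = 0.0653, 3.2% of genes called).

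Type I interferon left Icam1 near 0 while Vcam1 lay above its baseline. IFN-α1 gave 10.7, 17.7, 12.1 and 12.9 CPM of Vcam1, above every unstimulated library. The change was 1.01 ± 0.47 (adjusted p = 0.201, 9.27% of genes called), and it passed in the 12 and 24 h libraries alone (1.24 ± 0.29, adjusted p = 0.0120) and in a fit of those groups only (0.99 ± 0.16, 0.00341). Icam1 had 1 count in the 4 IFN-α1 libraries and 49 in those with 100 ng/ml IFN-γ, a called difference (edgeR adjusted p = 9.66e-05, 16.1% of genes called) that was lost without duration in the model (0.294). Vcam1 did not differ by a called amount between those interferons (0.34 ± 0.41, adjusted p = 0.620).

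TGF-β was the stimulus with the lowest Vcam1. The libraries held 55, 33, 22 and 1 counts at 2, 6, 12 and 24 h, or 7.12, 4.40, 2.88 and 0.134 CPM. The 2 h library was 0.954 times the unstimulated one (0.641 to 1.42), that at 6 h 0.482 times (0.309 to 0.735) and that at 24 h 0.0305 times (0.000751 to 0.182). The mean over durations was -0.94 ± 0.59 and did not pass (edgeR adjusted p = 0.442, 8.28% of genes called). In the 12 and 24 h libraries alone Vcam1 fell by 1.83 (adjusted p = 0.0148). A slope test added after the values were seen gave -0.67 ± 0.21 per doubling of time (adjusted p = 0.127, 1.49% of genes called), which passed with DESeq2 (0.0162). The endothelial marker Cdh5, which sums to most of that marker list, rose by 1.25 ± 0.26 with TGF-β (adjusted p = 0.000656). The list spanned 5.57 to 26.8 CPM there and 3.58 to 6.48 CPM in unstimulated libraries, and its part in the Vcam1 level was not tested.

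IFN-γ and TNF together gave the highest level of both genes at every duration. Icam1 counts were 432, 252, 13 and 8, or 62.7, 29, 2.02 and 0.891 CPM at 2, 6, 12 and 24 h. Each lay above all other libraries of its duration. Icam1 rose by 7.24 ± 0.48 (log2 ± SE, edgeR adjusted p = 2.01e-13), where 42% of all genes were called. Over the 4 durations together it was 165-fold the unstimulated level (64.1 to 607, on 4 unstimulated counts). At 6 h, where the unstimulated library had 0 counts, it was at least 78.4-fold higher, taking 3 counts as the limit for that library, and at 24 h, on 8 counts, at least 2.29-fold. With the counting error of both libraries included, the lower 95% limits of those ratios were 63.3 and 1.47.

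The Icam1 response to the combination was early and did not last. Its level at 2 h was 70.3 times that at 24 h (35.4 to 164), with the drop of 2.16-fold (1.84 to 2.53) between 2 and 6 h and 31-fold (18 to 58.8) between 2 and 12 h. A test of the Icam1 slope against unstimulated cells did not pass (edgeR adjusted p = 0.938, 17.4% of genes called), with an unstimulated group at 0 to 3 counts. The slope of Icam1 in the combination did not differ by a called amount from that with TNF alone (adjusted p = 0.815), nor did its slope with TNF or IFN-γ alone from unstimulated cells (0.980 and 0.967).

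Vcam1 in the combination stayed high for the whole day. The libraries held 1196, 2252, 1649 and 1629 counts, or 174, 259, 256 and 181 CPM, each above all other libraries of its duration. The level at 2 h was 0.956 times that at 24 h (0.887 to 1.03). Relative to unstimulated cells the multiples were 23.3, 28.4, 39.8 and 41.2. Vcam1 rose by 5.07 ± 0.40 (edgeR adjusted p = 3.50e-12), and its slope against unstimulated cells was 0.25 ± 0.14 (adjusted p = 0.215). The endothelial list spanned 4.64 to 14.5 CPM in these libraries and Cdh5 rose by 0.93 ± 0.26 (adjusted p = 0.00440), with Cldn5 at 0. Its part in the Vcam1 level was not tested.

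On one scale per length of exon, Icam1 at 2 h in the combination reached 14.4 CPM per kilobase and Vcam1 19.6. By 24 h the same levels were 0.204 for Icam1 and 20.5 for Vcam1. In unstimulated cells at 2 h they were 0.0987 and 0.841.

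Adding TNF to IFN-γ multiplied Vcam1 by nearly the same factor at each duration, 13.3, 12.7, 12.5 and 12.7 at 2, 6, 12 and 24 h. The counting intervals of those 4 ratios overlap. Icam1 was multiplied by 14.1 (10.0 to 20.4), 25.6 (12.3 to 64.4), 2.85 (0.952 to 10.2) and 6.74 (0.904 to 299). Both genes rose in this comparison, Icam1 by 3.80 (edgeR adjusted p = 7.35e-10) and Vcam1 by 3.72 (1.56e-09), where 13.9% of genes were called.

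Adding IFN-γ to TNF gave a larger Vcam1 ratio at the late durations. The ratio of the combination to TNF alone was 1.45 (1.32 to 1.58), 2.07 (1.92 to 2.23), 3.0 (2.73 to 3.30) and 2.99 (2.69 to 3.34). Vcam1 rose by 1.24 (adjusted p = 0.00420, 14% of genes called), a call that was lost without the 6 h libraries (0.0686), without the 12 h libraries (0.0773) and without duration in the model (0.210). Its slope was higher in the combination than with TNF by 0.32 ± 0.08 per doubling of time (adjusted p = 0.0177, 3.27% of genes called), in a comparison added after the values were seen. The difference was similar but did not pass without the 2 h libraries (0.27 ± 0.17, adjusted p = 0.632), without the 24 h libraries (0.39 ± 0.11, 0.155) and with DESeq2 (0.32 ± 0.11, 0.0928). Icam1 rose by 4.63 over TNF alone (adjusted p = 3.78e-11), with ratios of 26.6 (16.2 to 47), 29.8 (14.9 to 69.7), 13.7 (2.06 to 583) and 6.20 (0.831 to 275).

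Set against the sum of the single log2 effects, the joint effect on Vcam1 departed by less than its SE. The departure was -0.26, -0.09, -0.05 and -0.06 at 2, 6, 12 and 24 h, and -0.11 ± 0.55 in the fit (edgeR adjusted p = 0.960, 0.0819% of genes called). For Icam1 the departure, computed with a prior count of 2, was 1.83, 2.17, 1.27 and 0.92. Each of these values depends on that prior, since the unstimulated libraries held 0 to 3 counts. In the fit it was 1.20 ± 1.13 and did not pass (adjusted p = 0.719). Its sign depended on an unstimulated group of 4 counts in total, since with the IL-2 group (0 counts) as the reference it was -1.85.

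**Figure D4:**
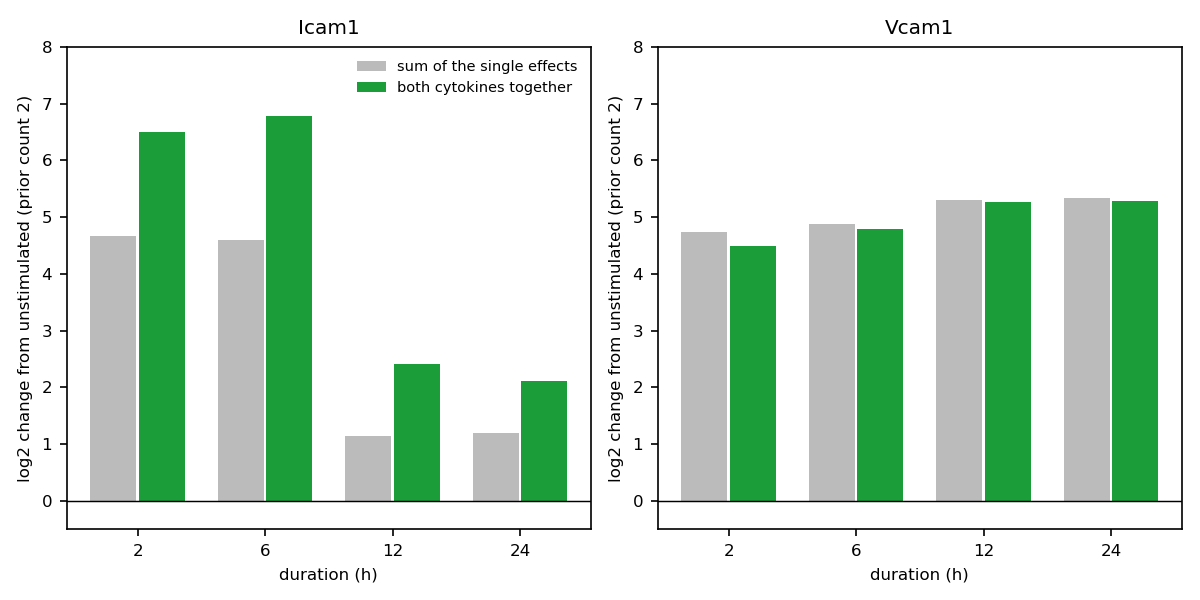
Log2 change from the unstimulated library of the same duration (prior count 2) for Icam1 (left) and Vcam1 (right) at 2, 6, 12 and 24 h. Grey bars add the changes with 100 ng/ml IFN-γ alone and 10 ng/ml TNF alone, and green bars show both cytokines together, with 1 library for each value and no error bar. The bars nearly coincide for Vcam1, and the green bars exceed the grey ones by 0.92 to 2.17 for Icam1.

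Ranked by the mean log2 level over the 4 durations, Vcam1 ran from IFN-γ plus TNF through TNF at 10, 1 and 0.1 ng/ml, IFN-γ at 100 and 1 ng/ml, IFN-α1, IFN-γ at 0.01 ng/ml, lymphotoxin, IL-2 and unstimulated cells to TGF-β. Once the common course over time was taken out, neighbours in that order differed by more than the larger of their SDs at 4 places. These were IFN-γ plus TNF over 10 ng/ml TNF (1.18), 10 over 1 ng/ml TNF (1.43), IFN-α1 over 0.01 ng/ml IFN-γ (0.87) and unstimulated over TGF-β (1.43). Icam1 ran from the combination through 100 ng/ml IFN-γ, 10 ng/ml TNF, 1 ng/ml IFN-γ and 1 ng/ml TNF to the groups at or near 0, with such gaps below the combination (2.72) and below 1 ng/ml TNF (0.83).

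Across the 48 libraries, log2 CPM of the genes correlated with Pearson's r of 0.65 and Spearman's rho of 0.65. This describes libraries that share stimuli and culture times. By Pearson's r Vcam1 had rank 159 among the genes most like Icam1, and Icam1 had rank 285 among those most like Vcam1. The 5 genes most like Vcam1 were Nfkbia, the NF-κB inhibitor IκBα (r = 0.91), the monocyte chemokine Ccl2 (0.91), the sugar transporter Slc2a6 (0.90), the NF-κB subunit Nfkb2 (0.90) and Angptl4 (0.89). Those most like Icam1 were Noct (0.89), Susd6 (0.86), the hexokinase Hk2 (0.86), the transglutaminase Tgm2 (0.86) and Agfg1 (0.85). With rank correlation 2 of the 5 remained for Vcam1 (Slc2a6 and Ccl2) and 0 for Icam1, which was at or near 0 counts in most libraries.

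The list of transcription factors and inhibitors covers the NF-κB, STAT and IRF families with a few other promoter factors. Of 20 tested, 18 were higher with IFN-γ plus TNF, where 42% of all genes were called and 2546 of 12203 were higher, with a median of 1.28 against -0.03 over all genes. Irf1, a transcription factor that interferons induce, rose by 4.61 ± 0.31, Nfkbia by 3.27 ± 0.19 and Relb, a subunit of NF-κB, by 2.12 ± 0.17. Fos (-0.46, adjusted p = 0.174) and Sp1 (-0.01, 0.899) did not pass. With 10 ng/ml TNF, where 17.1% of all genes were called, 16 were higher and Fos was lower, with a median of 0.66 against -0.02 over all genes. There Rela rose by 0.54 ± 0.10 and Irf1 by 1.84 ± 0.30. With 100 ng/ml IFN-γ 8 were higher and 0 lower (22.1% of all genes called), median 0.32, led by Irf1 (3.89 ± 0.31), while Rela was at 0.03 and did not pass. IFN-α1 raised 6 (9.27% of all genes called), and with TGF-β 0 of 20 were called (8.28% of all genes).

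Among the receptors for the cytokines given, 7 of 11 tested rose and Tgfbr1 fell by 0.79 with IFN-γ plus TNF, with a median of 0.60, in the comparison that called 42% of all genes. Tnfrsf1a, the main TNF receptor, rose by 0.60 ± 0.10 and Ifngr2, a chain of the IFN-γ receptor, by 0.85 ± 0.11. With TNF alone Ifngr2 rose by 1.18 ± 0.11, and with IFN-γ alone Tnfrsf1a rose by 0.56 ± 0.10. Ltbr, the lymphotoxin receptor, did not change by a called amount in the combination (0.03, adjusted p = 0.715) and had 70.7 to 108 CPM in all libraries. Of the IL-2 receptor chains, Il2ra had 0 counts in all 48 libraries, while Il2rb had 330 and Il2rg 154 in total. Il2rg rose by 2.92 ± 0.65 in the combination (edgeR adjusted p = 0.000337) and by 2.84 ± 0.66 with TNF alone (0.00217).

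The integrins that bind the members differed in presence. The listed subunits of the β2 integrins, the group that includes LFA-1 and Mac-1, were nearly silent. Over all libraries Itgal had 5 counts, Itgam (the first of its gene entries alone) and Itgax 3 each, Itgad 1 and Itgb2 36. Of the other listed subunits, Itga4, Itgb1 and Itgb7, which form the VCAM-1 receptors α4β1 and α4β7, were detected in every library. Itga9, the α9 subunit, had 133 counts in all, a median of 0.317 CPM, and was not tested. Itga4, the α4 subunit, rose by 2.02 ± 0.31 with IFN-γ plus TNF (edgeR adjusted p = 2.09e-06) and by 1.14 ± 0.32 with TNF alone (0.0107). Itgb7, its partner in α4β7, rose by 2.19 ± 0.45 in the combination (0.000164) and by 1.83 ± 0.45 with IFN-γ alone (0.00353). Itgb1, the partner in α4β1, was abundant at a median of 1491 CPM and did not change by a called amount with any of those stimuli. With TGF-β it rose by 0.72 ± 0.07 (1.90e-09).

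Other adhesion molecules included genes that rose and genes that fell. In the combination 5 of 19 tested were higher and 5 lower, against 2546 and 2583 of all 12203 genes (42% called), a share near the background, with a median of -0.08 against -0.03 over all genes. Cd47, a ligand of the phagocyte receptor SIRPα, rose by 1.49 ± 0.15, and Pvr, a ligand of the lymphocyte receptors DNAM-1 and TIGIT, rose by 0.45 ± 0.06. The neural adhesion molecule Ncam1 fell by 1.30 and Mcam by 0.80. Sele, the selectin that is induced on endothelium by TNF, rose with TNF alone by 1.03 ± 0.26 (adjusted p = 0.00426) and was at 0.57 ± 0.27 in the combination (0.0830, not called). With TGF-β (8.28% of all genes called) 4 of 19 were higher, led by the junction protein Jam2 (1.84 ± 0.24), and 0 lower. The other family members on the list stayed low, with Icam2 at 50, Icam4 at 4 and Icam5 at 67 counts in total.

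Of the 8 linkers to the cytoskeleton, Rdx (0.38 ± 0.06) and Msn (0.33 ± 0.09) rose in the combination and 0 fell, with a median of 0.07 and 42% of all genes called. Moesin, the product of Msn, binds the tails of ICAM-1 and VCAM-1. With TGF-β 5 of 8 rose and Ezr fell by 0.49, where 8.28% of all genes were called. Of 6 proteins of surface shedding that were tested, 2 rose and 3 fell in the combination, again beside 42% of all genes called. Adam17, the protease that releases VCAM-1 from the surface, rose by 0.17 ± 0.06, its partner Rhbdf2 rose by 1.01 ± 0.11, and the protease Mmp2 fell by 0.70.

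Genes next to the members were also measured. Of 16 other genes within 100 kb of Icam1, 4 were tested. In the combination 2 of those 4 were called, beside 42% of all genes tested. S1pr2 rose by 0.38 ± 0.10 and Tyk2 by 0.29 ± 0.09, while Dnmt1 (-0.02) and Mrpl4 (-0.04) did not pass. Of 6 genes near Vcam1, 1 was tested, Extl2 (0.04 ± 0.07, adjusted p = 0.651). The antisense genes that overlap the members had 7 counts at Icam1 and 1 count at Vcam1 (Gm43109) in all 48 libraries.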

How the data were processed

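The authors deposited raw read counts per gene for bulk stranded mRNA libraries; HISAT and GRCm38 are named in the submitters' processing notes, and the counting tool is not given in the sources used here. Groups, doses and durations were read from the sample titles, because the dose fields give 1 for the lowest TNF and IFN-γ doses. Library depth was 5612907 to 9663207 counts. R 4.3.3 was used. Genes passing filterByExpr by group (12203 of 49671) were fitted with edgeR 4.0.16 (quasi-likelihood, robust, TMM factors) on group and duration over all 48 libraries, leaving 33 residual degrees of freedom. A second fit added a slope on log2 hours for each stimulus (22 residual degrees of freedom). Duration is a block by design, since each duration appears once in every group. P-values are two-sided, adjusted by Benjamini-Hochberg over all genes tested, with a threshold of 0.05. A stimulus effect is the mean over 4 durations, and the SE is the change divided by the square root of F. Ratios within a duration carry 95% exact counting intervals and no test. CPM uses totals of the genes tested times TMM factors, and log2 CPM a prior count of 2. The ratio of the genes was tested by exact permutation over 13 comparisons. Alternatives were DESeq2 1.42.0, its size factors in edgeR, no filter, each duration left out, no duration term, the compared groups alone, early or late libraries alone, and IL-2 as the reference; 4 slope comparisons were added after the values were seen. The procedure was tested on simulated data: of 100 genes changed by 1 log2 unit between IFN-γ plus TNF and unstimulated, 82% were recovered, and of 100 changed by 2, 96%. In the slope fit, with IFN-γ plus TNF against TNF alone, 67% of 100 slope differences of 0.5 and 90% of 100 of 1 were recovered. False calls numbered 7 in the first simulation and 5 in the second. The text names both members, genes of lists covering integrins, adhesion, linkers, shedding, transcription factors, receptors and cell types, the 5 genes most correlated with each member, and genes within 100 kb. Members and lists were chosen with earlier results of these data known. Sequence came from the RefSeq promoter table, which held 1 of the 2 members.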

Additional observations from a re-analysis of the deposited data

Results flagged for a closer look

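Icam1 had 1 count in the IFN-α1 library of 2 h (0.146 CPM) and 0 in those of 6, 12 and 24 h, which set that library apart from the rest of its group. The criterion compares the gap to the nearest value with the range of the group. It is always met when all but 1 library of a group hold 0 counts. Its usual rate of about 1 group in 20 by chance thus does not apply here, and a single count carries no information on the level.

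The effect of dose or of added IFN-γ on Vcam1 differed between durations in 3 comparisons by the test of the slope on log2 hours. Per doubling of time, 10 ng/ml TNF exceeded 1 ng/ml by 0.45 and 0.1 ng/ml by 0.68 log2 units, and IFN-γ plus TNF exceeded TNF alone by 0.32 (edgeR adjusted p = 0.0187, 7.68e-05 and 0.0177). These comparisons were added after the values were seen.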

How the results depend on the processing

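The rise of both genes with IFN-γ plus TNF, the rise of both over IFN-γ alone, that of Icam1 over TNF alone and that of Vcam1 with 10 ng/ml TNF kept their direction and their call under each alternative that gave a value. Icam1 had too few counts to be tested without the 2 h libraries, in the 12 and 24 h libraries alone and in most fits of the compared groups alone. Its precision is limited by 0 to 3 counts in each unstimulated library.

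Leaving out 1 duration at a time gave 1.23 to 1.52 for Vcam1 with 100 ng/ml IFN-γ, 2.11 to 2.99 for Icam1 with 10 ng/ml TNF and 1.10 to 1.42 for Vcam1 in the combination over TNF, each call being lost at least once. Without duration as the replicate block the pairing by time is ignored, and Vcam1 with IFN-γ (1.30), Icam1 with IFN-γ (3.42) and with TNF (2.57) and Vcam1 in the combination over TNF (1.15) did not pass; Icam1 at 10 against 1 ng/ml TNF was -0.031 and Vcam1 with IL-2 -0.010. In the 2 and 6 h libraries alone Vcam1 with IFN-γ (0.99), Icam1 with TNF (2.93) and Vcam1 in the combination over TNF (0.82) did not pass. Vcam1 with IFN-γ also did not pass with no filter (1.34), nor Icam1 with TNF under DESeq2 (2.59). The cause of these losses was not tested.

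Changes that were never called also changed sign. Vcam1 with IL-2 was -0.060 to 0.062 with a duration left out, -0.0044 in the early, -0.0096 in the late libraries and -0.0074 in the compared groups alone. Vcam1 with lymphotoxin was -0.036 to 0.12, its slope with 10 ng/ml TNF -0.11 to 0.0032 and its change with 0.01 ng/ml IFN-γ in the late libraries -0.027. Icam1 spanned -0.46 to 0.33 with 0.01 ng/ml IFN-γ, -0.16 to 0.61 with 0.1 ng/ml TNF and -0.31 to 0.13 at 10 against 1 ng/ml TNF (early libraries -0.00047). Its slopes spanned -0.41 to 1.35 (TNF), -0.32 to 0.94 (IFN-γ), -0.96 to 1.08 (both) and -0.12 to 0.40 (TNF against IFN-γ). With IL-2, at 0 counts, as the reference, Icam1 was 1.45 with IFN-α1, 2.98 with 0.01 ng/ml IFN-γ and -1.85 for the departure of the joint effect. Icam1 relative to Vcam1 spanned -0.47 to 0.11, -0.87 to 0.51 and -0.081 to 0.93 with 0.01, 1 and 100 ng/ml IFN-γ and -1.34 to 0.38 in the combination, with 0.032 (1 ng/ml IFN-γ) and 0.70 (combination) at a prior count of 0.5.

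The number of genes called moved by over 1.5 times in all comparisons but IL-2 under some alternative: from 5129 to between 1853 and 5701 (combination), 2091 to 283 and 2645 (10 ng/ml TNF), 2702 to 446 and 3442 (100 ng/ml IFN-γ), 1697 to 350 and 2342 (combination over IFN-γ), 1704 to 426 and 2461 (over TNF), 10 to 0 and 94 (joint departure), 1010 to 241 and 1206 (TGF-β), 1131 to 175 and 1363 (IFN-α1), 1827 to 272 and 2935 (1 ng/ml IFN-γ), 332 to 38 and 859 (1 ng/ml TNF), 2 to 0 and 118 (0.1 ng/ml TNF), 1267 to 365 and 1605 (TNF against IFN-γ), 29 to 0 and 374 (10 against 1 ng/ml TNF), 1527 to 160 and 2850 (1 against 0.01 ng/ml IFN-γ) and 1964 to 134 and 3101 (IFN-γ against IFN-α1). Comparisons with 0 calls reached at most 7 (lymphotoxin), 36 (0.01 ng/ml IFN-γ), 68 (1 against 0.1 ng/ml TNF) and 18 (100 against 1 ng/ml IFN-γ). Slopes went from 297 to 23 and 415 (TNF), 842 to 37 and 1001 (IFN-γ), 2125 to 700 and 2266 (combination), 390 to 79 and 517 (TNF against IFN-γ), 182 to 17 and 278 (TGF-β), 32 to 1 and 99 and 614 to 35 and 1140 (10 against 1 and 0.1 ng/ml TNF) and 399 to 23 and 514 (combination against TNF).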
